A study of Homo sapiens with 12 samples.

Results

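The 9 genes *TOB1*, *TOB2*, *BTG1*, *BTG2*, *BTG3*, *ZFP36*, *ZFP36L1*, *ZFP36L2* and *PUM2* encode proteins grouped here as adaptors of the CCR4-NOT complex, which link it to mRNAs. They were named by gene symbol, by a rule that uses no measured value but was set with earlier results of these data known, from the 20042 named genes that had a value on each of the 12 arrays, and all 9 lay above the filter on low values that left 15033 genes to test. The study compared HEK-293T cells, a human embryonic kidney cell line, in which the subunit CNOT1, CNOT2 or CNOT3 could be knocked down by a hairpin RNA switched on with doxycycline (Dox). The pINDUCER (pIND) plasmid was stably integrated, and cells with a hairpin against firefly luciferase (Luci) served as the control. In the +Dox groups the cells received Dox at 1 µg/ml for 4 days, and the -Dox groups carried the same plasmid without Dox. Each state of the CNOT2 and Luci lines was measured on 2 arrays, whereas each state of the CNOT1 and CNOT3 lines had 1 array. Each hairpin was represented by its own stable cells, so a difference between lines cannot be told apart from a difference between the clones.

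CCR4-NOT is the main complex that shortens the poly(A) tails of cytoplasmic mRNAs, and it finds its substrates largely through adaptors. TOB and BTG proteins share a domain that binds the deadenylases CNOT7 and CNOT8 and are known for slowing cell proliferation, while the zinc finger proteins of the ZFP36 family bind AU-rich elements and contact CNOT1. PUM2 is a Pumilio protein that binds its own RNA motif, and several mRNAs of adaptors, *BTG2* and *ZFP36* among them, are themselves short-lived and induced within minutes of stimulation.

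The 3 members on which the results turn, *BTG1*, *BTG2* and *ZFP36*, are shown with the 250 bases before their start site (RefSeq, GRCh38.p14, written along the gene). Capitals mark any of the 5 motifs searched on both strands.
BTG1 (chr12:92145847-92146096, minus strand): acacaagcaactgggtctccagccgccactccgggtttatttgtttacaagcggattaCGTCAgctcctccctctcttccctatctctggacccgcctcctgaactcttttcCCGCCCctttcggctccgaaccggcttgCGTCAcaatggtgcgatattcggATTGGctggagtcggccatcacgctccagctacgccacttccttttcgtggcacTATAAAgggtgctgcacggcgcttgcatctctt
BTG2 (chr1:203305269-203305518, plus strand): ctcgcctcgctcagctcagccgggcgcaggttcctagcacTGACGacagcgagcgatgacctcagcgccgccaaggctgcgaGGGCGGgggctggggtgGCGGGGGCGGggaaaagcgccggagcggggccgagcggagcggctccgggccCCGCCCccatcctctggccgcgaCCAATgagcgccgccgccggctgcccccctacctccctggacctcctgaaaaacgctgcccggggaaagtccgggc
ZFP36 (chr19:39406597-39406846, plus strand): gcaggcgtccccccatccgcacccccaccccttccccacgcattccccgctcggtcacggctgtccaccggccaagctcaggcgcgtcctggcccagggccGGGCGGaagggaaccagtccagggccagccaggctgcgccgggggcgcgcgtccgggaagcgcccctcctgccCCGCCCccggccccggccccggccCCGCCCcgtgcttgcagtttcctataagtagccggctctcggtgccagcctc
The motifs were the GC box (GGGCGG), the CCAAT box (CCAAT), the TATA box (TATAAA), the core of a cyclic AMP response element (TGACG) and an EGR factor site (GCGGGGGCG), and the EGR match overlaps a GC box in *BTG2*. *BTG2* held 3 GC boxes, 1 CCAAT box, 1 cyclic AMP element core and 1 EGR site, *ZFP36* held 3 GC boxes and no match to the other 4, and *BTG1* held 1 GC box, 1 CCAAT box, 1 TATA box and 2 cyclic AMP element cores. Among all 35116 promoter windows of this length, 42.6% held a GC box, 32.0% a CCAAT box, 10.7% a TATA box, 21.2% a cyclic AMP element core and 4.72% an EGR site. The pair that moved most alike over the arrays, *BTG2* and *ZFP36*, thus shared the GC box, the most frequent of the 5 motifs. Of the 12 windows of the members 8 held it, and these came from 7 of the 8 members with a promoter entry. A match describes these letters and is no evidence of binding.

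The values were log2 intensities with a median over spots of 3.34 and an upper quartile of 6.69. Arrays of the same group correlated between 0.958 and 0.971 over the genes tested. On its brightest spot each targeted mRNA was lowest in its own induced line, which checks the labels of the induced CNOT arrays but not those of the Luci arrays. The dimmer *CNOT3* spot was lowest in CNOT2 +Dox, at 4.23, beside 5.30 in CNOT3 +Dox. The dimmer *CNOT2* spot, at 2.20 to 3.44, was not lowest in CNOT2 +Dox. *CNOT1* was 7.23 without and 5.07 with Dox in its line (difference -2.16, SE 0.43, adjusted p = 1), *CNOT3* 8.96 and 6.80 (-2.16, SE 0.57, adjusted p = 1). *CNOT2* was 9.86 and 9.72 without and 8.96 and 8.38 with Dox (-1.12, SE 0.31, adjusted p = 1). Over both Dox states, *CNOT3* also differed by -2.29 (SE 0.35) between the CNOT3 and Luci lines (limma adjusted p = 0.0387), a call lost with any 1 of the 8 CNOT2 or Luci arrays left out (adjusted p = 0.0556 to 0.114), with the mean of its spots (adjusted p = 0.212) and with the second Luci -Dox array counted as +Dox (adjusted p = 0.0557). Of 7 markers fixed for HEK-293T cells 4 lay above the upper quartile on all arrays, *VIM* and *KRT18* among them, while *EPCAM* ranged from 2.38 to 7.12. Of 12 markers of blood, endothelial and fibroblast cells 11 lay below the upper quartile on all arrays, and *COL1A1* was the exception. The second Luci -Dox array is called untreated in its title but Dox-treated in another label field. It was grouped by its title, and the second Luci pair of +Dox and -Dox arrays exists only under that grouping. Of the 99 member differences in the 11 comparisons that hold Luci arrays, 17 took the other direction when it was counted as +Dox. Another 38 moved by over 1.5 times. Where such a difference between groups, fitted without the replicate number, is given here, both values follow. Values of single pairs are by title. In such bulk samples a lower level in fewer cells and a lower level in each cell cannot be told apart.

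The 9 members were all well detected, the lowest value being 5.23 for *ZFP36*. *BTG2*, a growth-restraining gene that p53 and mitogens both induce, was the most variable, from 8.74 in CNOT3 -Dox to 11.60 in CNOT2 +Dox, a range of 2.86 on the log2 scale (7.26-fold). *ZFP36*, which encodes tristetraprolin, followed with a range of 1.77 (3.41-fold), from 5.23 in CNOT1 -Dox to 7.00 in CNOT2 +Dox. *ZFP36L2* was the least variable, with a range of 0.72 (1.65-fold). The SD within groups was 0.80 for *BTG2*, 0.31 for *ZFP36* and 0.07 for *TOB2*, beside a median of 0.43 over all genes tested, so for *BTG2* much of the range lay between arrays of the same group.

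**Figure D1:**
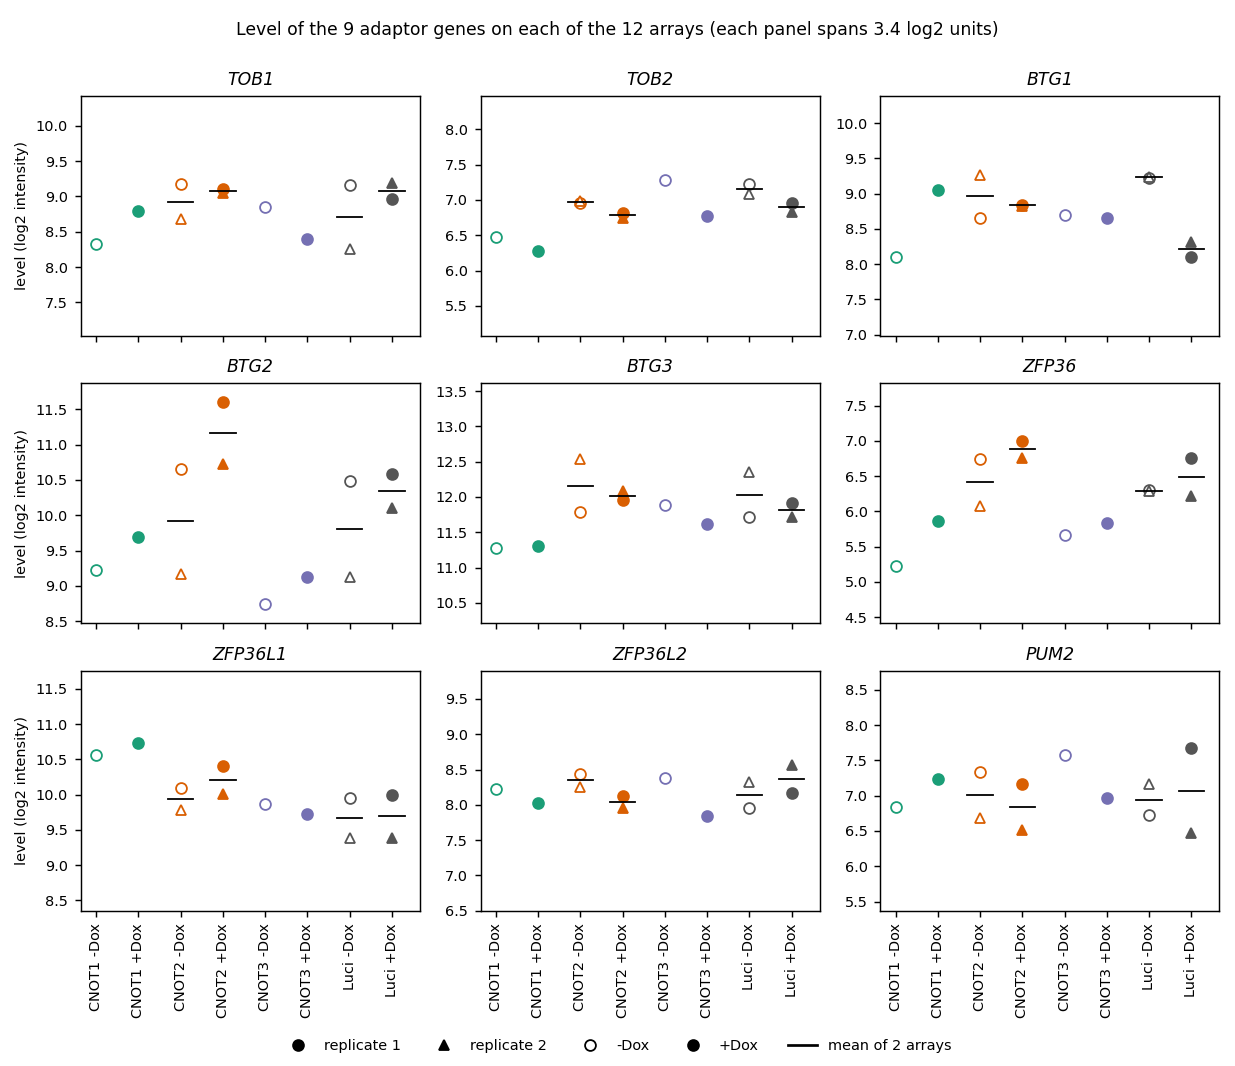
Log2 intensity of the 9 adaptor genes (y axis) on each of the 12 arrays, arranged by group (x axis). Circles are replicate 1, triangles replicate 2, open symbols -Dox, filled symbols +Dox and lines the mean of 2 arrays. *BTG2* spans 8.74 to 11.60, and the 4 *ZFP36* values of the CNOT1 and CNOT3 lines, 5.23 to 5.86, lie below the other 8.

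No member passed an adjusted p of 0.05 in any of the comparisons when the groups were fitted without the replicate number. In the own-line comparison of CNOT2 +Dox with CNOT2 -Dox, limma called 0 of the 15033 genes (0%) at that threshold and 610 at an unadjusted p under 0.05 (4.06%), while 1 of the 9 members, *BTG2*, lay past 2-fold, beside 5.63% of all genes. The Luci line likewise gave no call (0%), with 417 genes at an unadjusted p under 0.05 (2.77%) and 1 member, *BTG1*, past 2-fold beside 4.22% of genes, or none beside 7.56% with the second -Dox array counted as +Dox. For CNOT2 +Dox against Luci +Dox no gene was called (0%), 809 had an unadjusted p under 0.05 (5.38%), and none of the members lay past 2-fold beside 6.53% of genes. With that array regrouped, 1 member, *BTG2*, did so beside 7.09%. Within the CNOT1 line and within the CNOT3 line, each with 1 array per state, no member lay past 2-fold, beside 8.56% and 10.1% of all genes. Against Luci +Dox, 1 member, *ZFP36L1*, lay past 2-fold in CNOT1 +Dox and 1, *BTG2*, in CNOT3 +Dox, beside 19.1% and 18.7% of genes, and limma called 0.233% and 0.273% of genes. The regrouping left no member past 2-fold in CNOT3 +Dox, beside 19.1%. Of the line comparisons, that of the CNOT3 line had 1 member, *BTG2*, past 2-fold beside 12.7% of genes, and those of the CNOT1 and CNOT2 lines had none beside 15.6% and 2.41%. With the replicate number as a term, 2 members, *BTG2* and *ZFP36*, lay past 2-fold in the CNOT1 line, beside 16.2%, and in CNOT1 +Dox against Luci +Dox *BTG2* was at -1.19 (SE 0.38) and *ZFP36L1* at 0.80 (SE 0.24). With at most 2 of the 9 members past 2-fold in each of these comparisons, the counts are no result about the members as a group. The median difference of the 9 members was -0.13 in the CNOT2 line, 0.40 in the CNOT1 line, -0.26 in the CNOT3 line and 0.12 in the Luci line, beside 0.01 over all genes in each, and that in the Luci line was -0.26 with the regrouped array. With groups of 1 array, limma's SE rests on the assumption that these arrays vary like the 4 replicated groups.

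*BTG2* was higher with Dox in every pair of arrays as titled. In the CNOT2 line it was 10.66 and 9.17 without Dox and 11.60 and 10.72 with Dox, so the groups did not overlap. Of the 9 members this held for 4 (*TOB2*, *BTG2*, *ZFP36* and *ZFP36L2*), beside 29.9% of all genes. The pairs differed by 0.94 in replicate 1 and 1.55 in replicate 2, and the mean difference was 1.24 (SE 0.66, 2.37-fold, adjusted p = 1). In the CNOT1 line *BTG2* was 9.22 without and 9.69 with Dox, and in the CNOT3 line 8.74 and 9.13. In the Luci line it was 10.48 and 9.12 without Dox and 10.59 and 10.11 with Dox, where the groups overlapped. The Luci pairs were therefore 0.11 and 0.99 higher with Dox. The CNOT2 effect exceeded the Luci effect by 0.70 (SE 0.93, adjusted p = 1), which is less than its SE. With the replicate number as a term, the difference in the CNOT2 line was 1.24 (SE 0.30, limma adjusted p = 0.428). In that fit the CNOT2 effect exceeded the Luci effect by 0.69 (SE 0.42, adjusted p = 0.999), which is more than its SE but no call. The second Luci pair rests on the array with 2 labels. Counted as +Dox, it turned the Luci difference from 0.55 (SE 0.66) to -0.54 (SE 0.77), and the CNOT2 effect then exceeded the Luci effect by 1.78 (SE 1.01, adjusted p = 0.995). CNOT2 +Dox exceeded Luci +Dox by 0.81 (SE 0.66), or by 1.22 (SE 0.61, adjusted p = 0.78) with that grouping. Neither grouping gave a call. Without CNOT2 -Dox replicate 2 the difference in the CNOT2 line was 0.50, and without CNOT2 -Dox replicate 1 it was 1.99.

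*BTG2* was lowest in the CNOT3 line. Both CNOT3 arrays, 8.74 and 9.13, lay below the first Luci arrays, 10.48 and 10.59, whereas the second Luci -Dox array, at 9.12, reached into their range. The CNOT3 and Luci lines differed by -1.14 on the log2 scale (SE 0.57, 2.20-fold lower in the CNOT3 line, adjusted p = 0.389). *BTG2* also differed between replicates, replicate 2 being lower than replicate 1 in all 4 replicated groups, with differences from -0.48 to -1.49. In the fit with a replicate term, replicate 2 minus replicate 1 was -1.05 (SE 0.21, adjusted p = 0.0322), and 16.1% of all genes passed for this replicate difference. The same fit gave a difference between the CNOT3 and Luci lines of -1.67 (SE 0.28, adjusted p = 0.0454), a call that 3.86% of genes shared, against 1.18% without the term. In the CNOT1 line the difference from the Luci line was -0.62 (SE 0.57, adjusted p = 0.59), and -1.15 (SE 0.28, adjusted p = 0.0589) with the term. This fit treats the CNOT1 and CNOT3 arrays, which carry no number, as part of the first experiment, as the study's description has it. CNOT3 +Dox differed from Luci +Dox by -1.22 (SE 0.81, adjusted p = 0.639), and by -0.81 with the second Luci -Dox array counted as +Dox. Without Luci -Dox replicate 1 the line difference was -0.80, and without Luci -Dox replicate 2 it was -1.48.

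*BTG1*, the closest relative of *BTG2* and a restrainer of lymphocyte proliferation, had its largest Dox difference in the control line when arrays were grouped by title. It was 9.22 and 9.24 in Luci -Dox and 8.10 and 8.32 in Luci +Dox, and by title the groups did not overlap. Of the 9 members this held for 2, *TOB2* and *BTG1*, beside 22.9% of all genes. The difference was -1.02 (SE 0.30, 2.03-fold lower, unadjusted p = 0.0116 and adjusted p = 1 by limma). In the CNOT1 line *BTG1* instead was 8.10 without Dox and 9.05 with Dox, a difference of 0.95 (SE 0.42, adjusted p = 1). It was 8.66 and 9.27 in CNOT2 -Dox and 8.84 and 8.83 in CNOT2 +Dox, the +Dox arrays lying between the others. In the CNOT3 line it was 8.70 and 8.65. The Dox difference in the CNOT1 line exceeded that in the Luci line by 1.97 (SE 0.51, unadjusted p = 0.00694, adjusted p = 1), beside 6.95% of genes that were past 2-fold higher in this contrast. The corresponding values were 0.89 (SE 0.42) for the CNOT2 line and 0.97 (SE 0.51) for the CNOT3 line, and all 3 share the same 4 Luci arrays. With the second Luci -Dox array counted as +Dox the Luci difference was -0.67 (SE 0.51, unadjusted p = 0.231 by limma) and the Luci groups overlapped. That difference was smaller in size than the 0.95 of the CNOT1 line, and the 3 contrasts were 1.62, 0.54 and 0.62. Relative to Luci +Dox, *BTG1* was 0.62 (SE 0.30) higher in CNOT2 +Dox, where the arrays did not overlap, and 0.84 (SE 0.36) higher in CNOT1 +Dox. With that array regrouped these were 0.28 and 0.50, and the CNOT2 +Dox and Luci +Dox arrays overlapped. Without CNOT2 -Dox replicate 1 the CNOT2 contrast was 0.58.

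**Figure D2:**
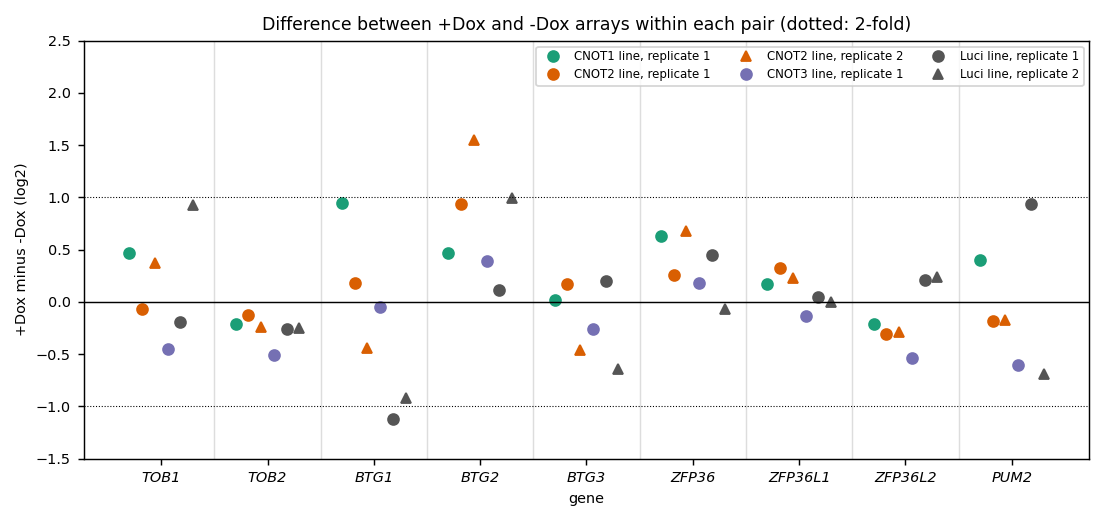
Difference between +Dox and -Dox (y axis, log2) in each of the 6 pairs of arrays for the 9 genes (x axis). Colours give the line, circles replicate 1 and triangles replicate 2, and dotted lines mark 2-fold. By the arrays' titles, *BTG2* is above 0 in every pair, *TOB2* is below 0 in every pair, *BTG1* is at -1.12 and -0.92 in the Luci pairs, and *ZFP36L2* is below 0 in the CNOT pairs and above 0 in the Luci pairs.

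*TOB2*, a TOB family member that binds both poly(A)-binding protein and CCR4-NOT, was slightly lower with Dox in every pair, Luci included. Without Dox it was 6.48 in the CNOT1 line, 6.95 and 6.98 in the CNOT2 line, 7.28 in the CNOT3 line and 7.22 and 7.08 in the Luci line. With Dox it was 6.27, then 6.82 and 6.74, then 6.77, and 6.96 and 6.83 in the same order. The pairs of the CNOT lines differed by -0.13 to -0.51 and those of the Luci line by -0.26 and -0.25. The mean effect in the 3 CNOT lines minus that in the Luci line was -0.05 (SE 0.31, 95% interval -0.78 to 0.68). Its 2 CNOT1 arrays were the lowest of the 12, and the CNOT1 and Luci lines differed by -0.65 (SE 0.21, unadjusted p = 0.0196, adjusted p = 0.161).

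*TOB1*, its close relative, showed no common direction. It was 8.33 and 8.80 in CNOT1 -Dox and +Dox, and 8.85 and 8.40 in CNOT3 -Dox and +Dox. In the CNOT2 line it was 9.17 and 8.68 without and 9.10 and 9.05 with Dox, and in the Luci line 9.16 and 8.26 without and 8.97 and 9.19 with Dox. The own-line differences ran from -0.45 to 0.47 in the CNOT pairs and were -0.19 and 0.93 in the Luci pairs. The Luci groups differed by 0.37 (SE 0.37), or by -0.35 with the second Luci -Dox array counted as +Dox. *BTG3*, an antiproliferative BTG protein, was 11.28 and 11.30 in the CNOT1 line and 11.88 and 11.62 in the CNOT3 line. It was 11.78 and 12.54 in CNOT2 -Dox, 11.95 and 12.08 in CNOT2 +Dox, 11.71 and 12.35 in Luci -Dox and 11.91 and 11.71 in Luci +Dox. Its CNOT1 arrays were the lowest of the 12, and the CNOT1 and Luci lines differed by -0.63 (SE 0.32, adjusted p = 0.328).

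*ZFP36* separated the lines more clearly than it separated the Dox states. It was 5.23 and 5.86 in CNOT1 -Dox and +Dox and 5.66 and 5.84 in CNOT3 -Dox and +Dox. It was 6.74 and 6.08 in CNOT2 -Dox, 7.00 and 6.76 in CNOT2 +Dox, 6.30 and 6.29 in Luci -Dox and 6.75 and 6.22 in Luci +Dox. All 4 arrays of the CNOT1 and CNOT3 lines thus lay below all 8 arrays of the CNOT2 and Luci lines. Of the 9 members this held for *ZFP36* alone in either direction, beside 10.1% of all genes. The difference from the Luci line was -0.84 for the CNOT1 line (SE 0.29, 1.80-fold lower, adjusted p = 0.179) and -0.64 for the CNOT3 line (SE 0.29, adjusted p = 0.348). With the replicate term the CNOT1 difference was -1.02 (SE 0.21, adjusted p = 0.0445), where 10.6% of all genes passed, against 2.26% without it. The CNOT3 difference was then -0.82 (adjusted p = 0.101).

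With Dox, *ZFP36* was higher in all 4 pairs of the CNOT lines, by 0.63 in the CNOT1 line, 0.26 and 0.68 in the CNOT2 line and 0.18 in the CNOT3 line. The Luci pairs differed by 0.45 and -0.07. The mean effect over the 3 CNOT lines was 0.43 (SE 0.25, adjusted p = 1), and it exceeded the Luci effect by 0.24 (SE 0.42, 95% interval -0.77 to 1.24). *BTG2* and *ZFP36* were the 2 members above in all 4 CNOT pairs, beside 13% of all genes, and *TOB2* and *ZFP36L2* the 2 below in all 4, beside 11.4%.

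**Figure D3:**
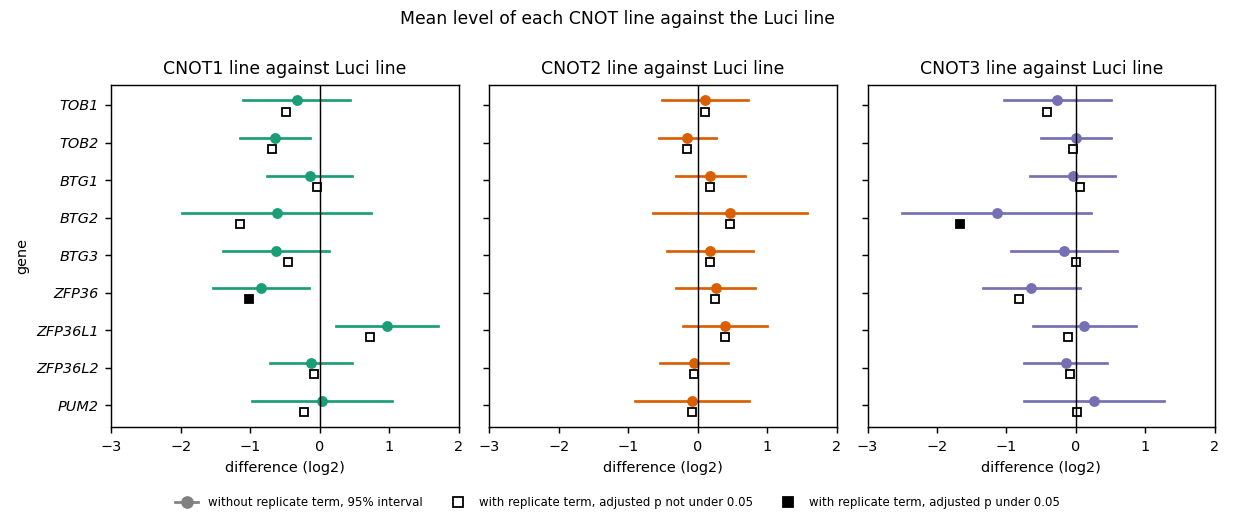
Mean log2 level of each CNOT line minus that of the Luci line (x axis), over -Dox and +Dox, for the 9 genes (y axis). Circles with lines give the difference and its 95% interval without a replicate term, and squares the difference with it, filled where the adjusted p was under 0.05. The filled squares are *ZFP36* in the CNOT1 line (-1.02) and *BTG2* in the CNOT3 line (-1.67).

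*ZFP36L1*, a ZFP36 relative that promotes decay of AU-rich mRNAs in many cell types, was highest in the CNOT1 line. It was 10.56 and 10.73 in CNOT1 -Dox and +Dox, 10.09 and 9.78 in CNOT2 -Dox, 10.41 and 10.01 in CNOT2 +Dox and 9.87 and 9.73 in CNOT3 -Dox and +Dox. It was 9.95 and 9.38 in Luci -Dox and 10.00 and 9.38 in Luci +Dox. Both CNOT1 arrays lay above the other 10. The CNOT1 line exceeded the Luci line by 0.97 (SE 0.31, 1.96-fold, unadjusted p = 0.0178, adjusted p = 0.155), and CNOT1 +Dox exceeded Luci +Dox by 1.04 (SE 0.44, adjusted p = 0.429). Of the 9 members, 4 (*TOB2*, *BTG3*, *ZFP36* and *ZFP36L1*) did not overlap between the CNOT1 and Luci lines, beside 37.2% of all genes. In the 2 groups CNOT2 +Dox and Luci +Dox, 7 of the 9 did not overlap, beside 32.8%, or 5 beside 22.8% with the second Luci -Dox array counted as +Dox. *ZFP36L1* had 4 spots. The second spot for the same transcript record gave 1.05 for the CNOT1 line, whereas 2 spots annotated to another record gave 0.46, at levels of 2.18 to 4.91 that reached below the median spot, and -0.20, at levels of 7.80 to 9.13. The mean of all 4 spots gave 0.57 (adjusted p = 0.438). The higher level in the CNOT1 line was therefore not shown by every spot.

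*ZFP36L2*, which blood stem cells and oocytes need in mice, moved in opposite directions in the knock-down and control lines, by amounts within the spread. On its brightest spot it was 8.23 and 8.02 in CNOT1 -Dox and +Dox and 8.38 and 7.84 in CNOT3 -Dox and +Dox. It was 8.44 and 8.25 in CNOT2 -Dox and 8.13 and 7.96 in CNOT2 +Dox, without overlap, beside 29.9% of all genes. In the Luci line it was 7.96 and 8.32 without and 8.17 and 8.56 with Dox. The Luci groups differed by 0.23 (SE 0.29), or by 0.39 with the second Luci -Dox array counted as +Dox. The mean effect in the 3 CNOT lines minus that in the Luci line was -0.58 (SE 0.36, adjusted p = 1). The array held 10 spots of this gene for 1 transcript record, which measure the same RNA and are no replicates. The CNOT3 difference was below 0 on 10 of 10 spots (mean -0.47, range -0.74 to -0.27), the CNOT2 difference on 9 and the CNOT1 difference on 7, while the Luci difference was above 0 on 8. The contrast of the CNOT lines with the Luci line was below 0 on all 10, with a mean of -0.46 (range -0.69 to -0.14).

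**Figure D4:**
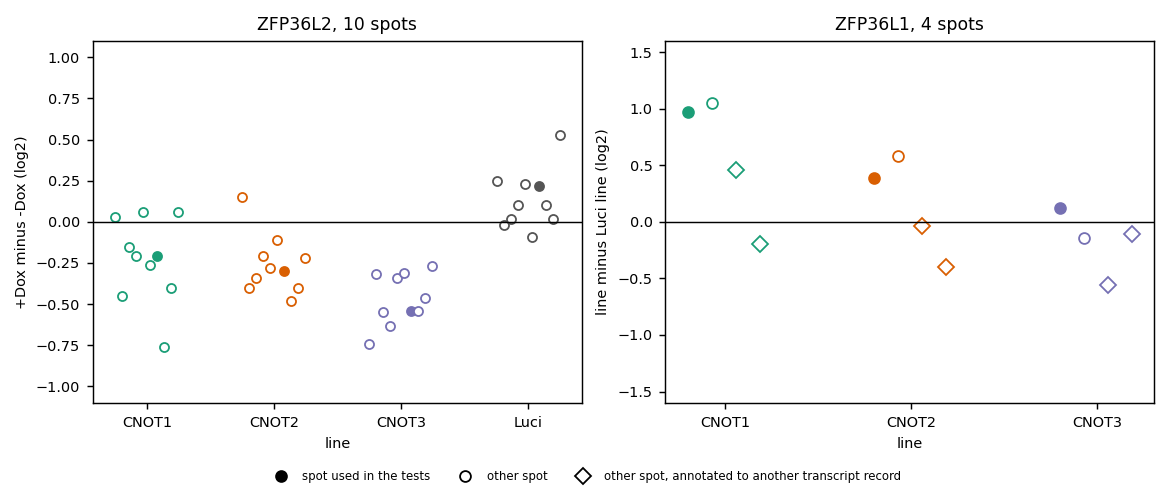
Left, +Dox minus -Dox (y axis, log2) on each of the 10 *ZFP36L2* spots in the 4 lines (x axis). Right, line minus Luci line (y axis, log2) on each of the 4 *ZFP36L1* spots in the 3 CNOT lines (x axis). Filled symbols are the spots used in the tests and diamonds spots annotated to another transcript record. All 10 *ZFP36L2* spots are below 0 in the CNOT3 line, and for *ZFP36L1* in the CNOT1 line the values run from -0.20 to 1.05.

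*PUM2* did not separate any of the replicated groups. It was 6.84 and 7.24 in CNOT1 -Dox and +Dox, 7.57 and 6.97 in CNOT3 -Dox and +Dox, 7.34 and 6.69 in CNOT2 -Dox and 7.16 and 6.52 in CNOT2 +Dox. In the Luci line it was 6.73 and 7.16 without and 7.67 and 6.47 with Dox, so the Luci +Dox arrays, 1.20 apart, held both the highest and the lowest of the 12 values. The mean effect in the CNOT lines was -0.13 (SE 0.36, 95% interval -0.99 to 0.74), an interval that reaches nearly to a 2-fold lower level.

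The replicate number was a further source of difference. Replicate 2 lay below replicate 1 in all 4 replicated groups for 3 members, *BTG2*, *ZFP36* and *ZFP36L1*, beside 21.6% of all genes, and above in all 4 groups for none, beside 21.8%. The coefficient was -0.36 (SE 0.16, adjusted p = 0.181) for *ZFP36* and -0.48 (SE 0.13, adjusted p = 0.066) for *ZFP36L1*.

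*BTG2* and *ZFP36* varied alike over the 12 arrays. Their Pearson correlation was 0.844 and their Spearman correlation 0.825, values that describe arrays sharing 4 lines, 2 Dox states and 2 replicate runs. Of the other members *TOB1* came nearest to *BTG2*, with a Pearson correlation of 0.746. Ranked against *BTG2* over all genes tested, *ZFP36* came 81st, and the nearest were *MRPL34* (0.945), *MRPL10* (0.943), both genes of mitochondrial ribosomal proteins, and *HHEX* (0.936), a homeobox gene. Those nearest to *ZFP36* were *OBFC1* (0.949), *SDC1* (0.937) and *SORBS3* (0.935).

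**Figure D5:**
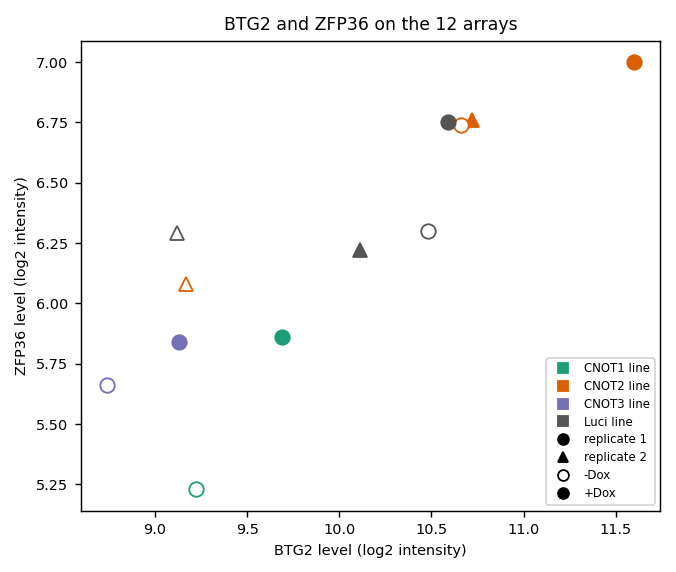
*ZFP36* level (y axis) against *BTG2* level (x axis), both as log2 intensity, on the 12 arrays. Colours give the line, circles replicate 1, triangles replicate 2, open symbols -Dox and filled symbols +Dox. The CNOT2 +Dox arrays are at the upper right and the CNOT1 and CNOT3 arrays at the lower left (Pearson correlation 0.844).

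Among genes related to the members, few passed a test. Of 13 other adaptors tested none was called in any of the 15 comparisons fitted, and their median over the mean Dox effect of the 3 CNOT lines was -0.20 beside 0.01 for all genes. *NANOS3* had a mean effect of -0.99 (SE 0.52), *CPEB1* of 0.65 (SE 0.56) and *SAMD4A* of 0.47 (SE 0.59), each with an adjusted p of 1. Of 15 subunits and deadenylases, *CNOT1* had a mean effect of -0.86 (SE 0.23), *RQCD1*, an older symbol of the subunit CNOT9, of 0.75 (SE 0.34) and *CNOT3* of -0.66 (SE 0.30), and the first and last of these are the hairpin targets.

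Of 38 AU-rich mRNAs known to be bound by ZFP36 proteins, 30 were tested. In the mean Dox effect of the CNOT lines 1 was past 2-fold higher and 1 lower, beside 1.54% and 0.472% of all genes, with a median of -0.11. *CCL2*, a monocyte-attracting chemokine, was 1.17 higher (SE 0.37, unadjusted p = 0.0165, adjusted p = 0.89), *FOS* -1.17 (SE 0.50) and *IL10* -0.87 (SE 0.29). For *FOS* the Luci line differed by -1.65 with Dox (SE 0.67, adjusted p = 1). Of the 30 immediate early genes tested 9 lay past 2-fold lower in the CNOT3 line against Luci, beside 6.74% of all genes, and 7 in the CNOT1 line, beside 8.13%, and 2 and 5 lay past 2-fold higher, beside 5.92% and 7.52%. These are the lines in which *ZFP36* was lowest, and their part in that difference was not tested. *FOS*, which is on this list too, was higher in the CNOT1 line than in the Luci line by 3.05 (SE 0.58, limma adjusted p = 0.053). In the CNOT3 line it differed by 0.12 (SE 0.58). With the second Luci -Dox array counted as +Dox these were 2.47 and -0.46. *SRF* had a mean Dox effect of -0.83 (SE 0.35) and *KLF10* of -0.77 (SE 0.75).

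Of 21 p53 targets tested, 6 lay past 2-fold lower in the CNOT3 line against Luci and none higher, beside 6.74% and 5.92% of all genes, with a median of -0.32 beside 0.03 for all genes. *CDKN1A*, the p53-induced inhibitor of cyclin-dependent kinases, named here after its value was seen, differed by -2.37 (SE 0.35, adjusted p = 0.0351, and 0.0515 to 0.112 with any 1 of the 8 CNOT2 or Luci arrays left out) in the line where *BTG2*, itself a p53 target, was also lowest. The low level was not particular to that line, since *CDKN1A* also differed by -1.82 between the CNOT1 and Luci lines. There the median of the p53 targets was -0.06, beside 0.02 for all genes. HEK-293T cells carry large T antigen, which binds p53, and a part of p53 in these differences was not tested. In the mean Dox effect of the CNOT lines *XPC* had 0.81 (SE 0.25), *TP53I3* 0.80 (SE 0.40) and *FAS* 0.65 (SE 0.26), with adjusted p of 0.89, 1 and 1.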

How the data were processed

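RNA of the 12 samples was labelled with Cy3 and hybridised to 1-colour Agilent arrays. The deposited values had been background-corrected (NormExp) and quantile-normalized by the authors, who name limma, and are read here as log2 intensities because the highest was 15.98. From these, 1 limma fit (R 4.3.3, limma 3.58.1) with 1 mean per group was made for the 15033 genes at or above the 25th percentile of mean level (log2 2.96), using the brightest spot per gene, with Benjamini-Hochberg adjustment over all of them and a threshold of 0.05. The spread came from the 4 groups with 2 arrays (4 residual degrees of freedom). The number of arrays limits the precision, and replicates may in part be technical, in which case p-values measure only that spread. Spots were named from the platform annotation, which gave 37051 of 62976 spots 1 gene, none several and 25925 none. Same-numbered arrays deviated together in all 6 pairs of groups (correlations 0.365 to 0.614), so a fit with the replicate number as a block was made beside the main fit. Named were all members on all their spots, the targeted subunits, up to 3 genes per list with the largest mean Dox effect in the CNOT lines and, for the 2 most variable members, the 3 genes most correlated with each. Members, lists and tests were chosen with earlier results of these data known, and 2 contrasts (CNOT1 and CNOT3 effects minus the Luci effect) and the replicate difference after seeing the data. The fit was tested on simulated data. Alternatives covered filters, spots, normalization, prior, arrays and the second Luci -Dox label. Promoters are from RefSeq (8 of 9 members).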

Additional observations from a re-analysis of the deposited data

Results flagged for a closer look

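4 differences between the Dox effect of a knock-down line and that of the Luci line were singled out because every pair of one line moved one way and every pair of the Luci line the other. *BTG1* was higher with Dox in the CNOT1 pair and lower in both Luci pairs, a difference of 1.97 (SE 0.51, limma adjusted p = 1). *ZFP36L2* was lower with Dox in each CNOT pair and higher in both Luci pairs, with differences of -0.44 (SE 0.50) for the CNOT1 line, -0.53 (SE 0.41) for the CNOT2 line and -0.77 (SE 0.50) for the CNOT3 line, each with an adjusted p of 1. With 1 of the 8 CNOT2 or Luci arrays left out in turn these ranged from -0.63 to -0.24, from -0.72 to -0.33 and from -0.96 to -0.57. All 4 use the same Luci arrays, and those of the CNOT1 and CNOT3 lines rest on 1 pair. How many of all genes met this rule was not counted, so the number is no result about the members. The second Luci pair exists only under the grouping by title. With the second Luci -Dox array counted as +Dox, the differences were 1.62 for *BTG1* and -0.60, -0.69 and -0.93 for *ZFP36L2* in the same order.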

How the results depend on the processing

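32 differences of single members were followed through 16 alternative settings. Of these 488 values 480 kept their direction and side of the threshold, 6 took the other direction and 2 passed the threshold, both with the replicate block: *BTG2* in the CNOT3 line against the Luci line (-1.67, adjusted p = 0.0454) and *ZFP36* in the CNOT1 line against the Luci line (-1.02, adjusted p = 0.0445). The cause of the change was not tested beyond the replicate difference itself. Each setting was changed alone. These 2 calls were therefore not checked with an array left out or with the second Luci -Dox array counted as +Dox. The replicate block changed no other member's call, and it moved the counts of all genes called to 178 (CNOT1 +Dox against Luci +Dox, from 35), 106 (CNOT3 +Dox against Luci +Dox, from 41), 1593 (CNOT1 line against Luci line, from 340) and 581 (CNOT3 line against Luci line, from 178).

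Of the 6, the *BTG2* difference in the Luci line was -0.54 with the second Luci -Dox array counted as +Dox and -0.13 to 1.23 with 1 array left out. The other 4 came from leaving out an array: *BTG2* in the CNOT2 minus the Luci effect ranged from -0.05 to 1.44, and in the mean CNOT effect minus the Luci effect *TOB2* ranged from -0.12 to 0.02 and *ZFP36* from -0.03 to 0.50. None of these was called under any setting.

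Counts over all genes moved by over 1.5 times as follows, where a stricter or absent filter changes how many dim genes are counted and the other causes were not tested. With the filter at the median, genes past 2-fold numbered 238 (CNOT2 own line), 145 (CNOT1 own line), 305 (CNOT3 own line), 77 (Luci own line), 244 (CNOT2 +Dox against Luci +Dox), 1530 (CNOT1 +Dox against Luci +Dox), 1410 (CNOT3 +Dox against Luci +Dox), 197 (CNOT2 effect minus Luci effect), 44 (mean effect of the CNOT lines), 183 (the same minus the Luci effect), 1361 (CNOT1 line), 78 (CNOT2 line) and 984 (CNOT3 line), and genes called 26 (CNOT3 +Dox against Luci +Dox) and 513 (CNOT1 line). With no filter, genes past 2-fold numbered 2079 (CNOT2 effect minus Luci effect), 2044 (CNOT1 own line) and 2347 (CNOT3 own line). With the second Luci -Dox array counted as +Dox they numbered 1137 (Luci own line), 2532 (CNOT2 effect minus Luci effect) and 1807 (mean CNOT effect minus Luci effect), and 197 genes were called for the CNOT1 line. An intensity trend with a robust prior called 541 there.

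Leaving out 1 of the comparison's own CNOT2 or Luci arrays at a time gave 1289 to 2262 genes past 2-fold in the CNOT2 own line, 1507 to 1813 for CNOT2 +Dox against Luci +Dox, 946 to 2131 in the Luci own line, 1723 to 2308 for the CNOT2 minus the Luci effect, 3226 to 3732 for CNOT1 +Dox and 2955 to 3925 for CNOT3 +Dox against Luci +Dox, 337 to 424 for the mean CNOT effect, 1066 to 2432 for that minus the Luci effect, and 2270 to 2853, 469 to 596 and 1720 to 2540 for the CNOT1, CNOT2 and CNOT3 lines. With any 1 of the 8 arrays left out, genes called numbered 0 to 13 for CNOT1 +Dox and 5 to 27 for CNOT3 +Dox against Luci +Dox, 86 to 179 for the CNOT1 and 66 to 121 for the CNOT3 line, and 0 to 0 elsewhere. No member was called in these fits. The CNOT1 and CNOT3 groups have 1 array each, so no array of theirs could be left out.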
